A study of Mus musculus with 14 samples.

Results

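The complement system is a cascade of plasma proteins that marks cells and debris for uptake or lysis, and 9 of its genes were examined among the 55291 gene symbols of each deposited table. They were C1s1, C1ra, C3, C4b, Cfb, Serping1, Cd55, Cd59a and C1qbp, and each was found as 1 row in both tables. The set was chosen by gene name, with results of both comparisons of this series already known. Which measured values chose the members is not recorded. C1s1 had already stood out among the genes that were higher in tumour samples, so all tumour and spleen values of the members are given as a description with no test. The cultures share no library with that comparison, and there each member is given with a test fitted over all genes, which is not independent support for the choice.

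In the classical pathway, C1q binds its target and activates the proteases C1r and C1s, which cleave C4 and C2 into an enzyme that splits C3. The lectin pathway reaches the same step through MASP proteases, and factor B (Cfb) forms the C3-splitting enzyme of the alternative pathway. Liver supplies most of the circulating proteins, while fibroblasts, macrophages and other cells make several of them locally. Membrane regulators such as CD55 and CD59, found on most blood cells, protect a cell from its own complement.

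The libraries came from 2 mouse experiments with wild-type genotype labels. In the first, spleen cells of OT-1 mice, whose T cell receptor recognises an ovalbumin peptide, were given 1 µg/mL of that peptide and 200 U/mL recombinant human interleukin-2. They were kept for 3 days of activation and 4 of expansion, with 100 nM of the acetyl-CoA carboxylase inhibitor ND-646 (n = 4) or with the DMSO vehicle (n = 4). In the second, CD8+ T cells were enriched and sorted from spleens (n = 3) and from MCA205 fibrosarcomas (n = 3) at 14 days after the tumour cells were injected under the skin of C57BL/6 mice. The tumour samples are described as pooled and the cultures began as whole splenocytes. The labels give no age or sex of the mice and do not say whether replicates were separate animals or cultures. The p-values therefore measure the spread among libraries, part of which may be technical.

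Library totals were 19.6 to 21.02 for spleen and tumour and 23.5 to 33.8 for the cultures, in units of 1e+06 estimated counts. All 16 genes of a CD8 T cell identity list were detected in every library, with Cd8a at means of 1548 CPM (counts per 1e+06 counts of the scaled library) in spleen, 962 in tumour, 724 in vehicle and 474 in ND-646 samples. The tumour libraries also held much RNA of connective tissue. The summed level of 20 fibroblast and fibrosarcoma markers was 12386 to 17846 CPM in tumour and 2.34 to 19.4 CPM in spleen libraries, highest in spleen replicate 1. Since these are bulk samples, fewer cells of a type and less RNA per cell cannot be told apart.

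The first proteases of the classical pathway were near or at 0 in spleen and well detected in tumour libraries. C1s1, which encodes the C1s protease, had no count in any spleen library and stood at 41.5, 58.6 and 61.6 CPM in tumour replicates 1, 2 and 3. Against a limit of 3 counts over the spleen group, it was at least 1095-fold higher in the tumour group. C1ra, the C1r protease that activates C1s, was at 0.0963, 0.0499 and 0 CPM in spleen replicates 1, 2 and 3. In the tumour replicates it was at 23.9, 35.1 and 33.0 CPM. Both proteases were lowest in tumour replicate 1, and no spleen value came near a tumour value. The ratio of pooled C1ra counts was 622 (95% exact interval 213 to 3020), a wide interval because the spleen group held 3 counts. Such intervals and limits cover counting error only. Without spleen replicate 1, which held 2 of those counts, the fitted log2 fold change of C1ra went from 9.11 to 9.94.

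C1ra and C1s1 are next to each other on mouse chromosome 6 among protein-coding genes of RefSeq (GRCm38.p6). The sequences around their transcription starts, 250 bases before to 50 after, are shown because these neighbours were high together in tumour libraries and low in spleen. Windows for C3 and for Cd55, which went the other way, are shown for comparison. RefSeq windows were found for 6 of the 9 members, and C4b, Cfb and Serping1 were not among them. C1s1 has more than 1 start in that table, and the most upstream is shown. Capitals mark matches to any of 8 motifs, searched on both strands.
C1ra, chr6:124512371-124512670 (+ strand): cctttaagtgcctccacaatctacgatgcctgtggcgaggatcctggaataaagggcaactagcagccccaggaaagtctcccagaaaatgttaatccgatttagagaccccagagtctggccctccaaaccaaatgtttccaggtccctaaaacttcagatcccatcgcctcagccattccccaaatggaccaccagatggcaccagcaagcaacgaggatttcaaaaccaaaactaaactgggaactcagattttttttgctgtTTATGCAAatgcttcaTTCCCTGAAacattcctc
C1s1, chr6:124542310-124542609 (- strand): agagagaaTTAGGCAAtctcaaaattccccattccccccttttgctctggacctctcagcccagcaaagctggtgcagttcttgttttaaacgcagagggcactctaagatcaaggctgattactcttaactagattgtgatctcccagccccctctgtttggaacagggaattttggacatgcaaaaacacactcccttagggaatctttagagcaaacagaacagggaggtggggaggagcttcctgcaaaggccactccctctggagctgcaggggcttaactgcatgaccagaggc
C3, chr17:57228087-57228386 (- strand): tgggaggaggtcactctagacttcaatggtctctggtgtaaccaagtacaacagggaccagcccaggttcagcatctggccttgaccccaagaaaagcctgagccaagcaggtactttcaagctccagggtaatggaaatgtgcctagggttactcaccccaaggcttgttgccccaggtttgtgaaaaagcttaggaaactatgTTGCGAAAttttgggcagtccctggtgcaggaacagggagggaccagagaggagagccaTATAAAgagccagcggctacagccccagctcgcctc
Cd55, chr1:130462695-130462994 (- strand): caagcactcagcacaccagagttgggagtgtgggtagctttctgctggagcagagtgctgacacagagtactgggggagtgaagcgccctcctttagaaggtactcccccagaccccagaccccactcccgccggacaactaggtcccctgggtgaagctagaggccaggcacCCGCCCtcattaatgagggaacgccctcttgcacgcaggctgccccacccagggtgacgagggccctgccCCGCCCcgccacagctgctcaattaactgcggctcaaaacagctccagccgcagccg

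Among the motifs were GAS, with the letters TTCNNNGAA, and C/EBP, with TTGCNNAA. The AP-1 motif was searched as TGANTCA and the E-box as CACGTG. The TATA motif had the letters TATAAA, and for the GC box they were GGGCGG. ISRE and NF-kB completed the set. The C1ra window held a C/EBP match at its bases 267 to 274 and a GAS match at bases 283 to 291. The C1s1 window held a C/EBP match at bases 9 to 16. C3 had a C/EBP match at bases 206 to 213 and a TATA match at bases 265 to 270, and Cd55 had GC boxes at bases 174 to 179 and 244 to 249. No matches overlapped in these windows. Of all 32851 RefSeq windows of this length, 10.8% held the C/EBP motif, 8.30% GAS, 13.6% TATA and 35.7% the GC box. These matches describe letters only. A match is not a binding site, and a missing match says nothing of the factor.

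The components on which the cascades converge were also high in tumour libraries. C3, the central component, was at 0.144, 0.150 and 0.0996 CPM in spleen replicates and at 24.5, 29.9 and 33.0 CPM in tumour replicates 1, 2 and 3. The ratio of pooled C3 counts was 222 (95% exact interval 112 to 515) on 8 spleen counts. Cfb, factor B, had 3 spleen counts in all and reached 7.26, 7.69 and 10.3 CPM in tumour replicates, a pooled ratio of 172 (58.4 to 834). As with C1ra, leaving out spleen replicate 1 moved its fitted log2 fold change, from 7.25 to 8.08. C4b, the C4 protein of the classical pathway, was scarce by comparison. C4b was at 0.494, 1.18 and 0.621 CPM in the tumour replicates, with 2 counts in the spleen group and a pooled ratio of 23.1 (6.03 to 196), and it had too few counts to enter the fit. Its near-identical relative C4a went the other way, with a mean CPM of 2.46 ± 0.533 over the spleens and 0.624 ± 0.164 over the tumours (SD, n = 3 each), and how reads were split between the pair is uncertain.

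The inhibitors did not move as one. Serping1, the C1 inhibitor, which inactivates C1r and C1s, had no spleen count and was at 3.06, 2.67 and 3.15 CPM in tumour replicates. It was at least 60.2-fold higher there. Cd59a, a membrane protein that blocks the lytic pore, was also at 0 in spleen, and was at 1.93, 1.18 and 1.34 CPM in tumour replicates, at least 30.1-fold higher. Cd55, or decay-accelerating factor, which dismantles the C3-splitting enzymes on the cell surface, ran opposite to all of these. Spleen replicates held 64.8, 63.4 and 64.9 CPM of Cd55, and tumour replicates 7.26, 6.25 and 6.64 CPM. Its log2 fold change was -3.26 ± 0.07 (SE), a pooled ratio of 9.57 in favour of spleen (95% exact interval 8.64 to 10.6).

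C1qbp differed from the other members in being abundant everywhere. It encodes a mitochondrial matrix protein that was first isolated as a binder of C1q. In CPM its level was 82.7, 84.9 and 86.4 in spleen and 96.3, 99.9 and 97.5 in tumour replicates. The groups did not overlap, but the log2 fold change was only 0.21 ± 0.05 (SE). Scaled by CD8 identity genes instead of by all genes, the median of all genes shifted from 0.03 to 0.88, and C1qbp stood at 1.07. Relative to that median it was 0.18 higher under the first scaling and 0.19 under the second. Cd55 relative to the median was -3.29 and -3.30.

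**Figure D1:**
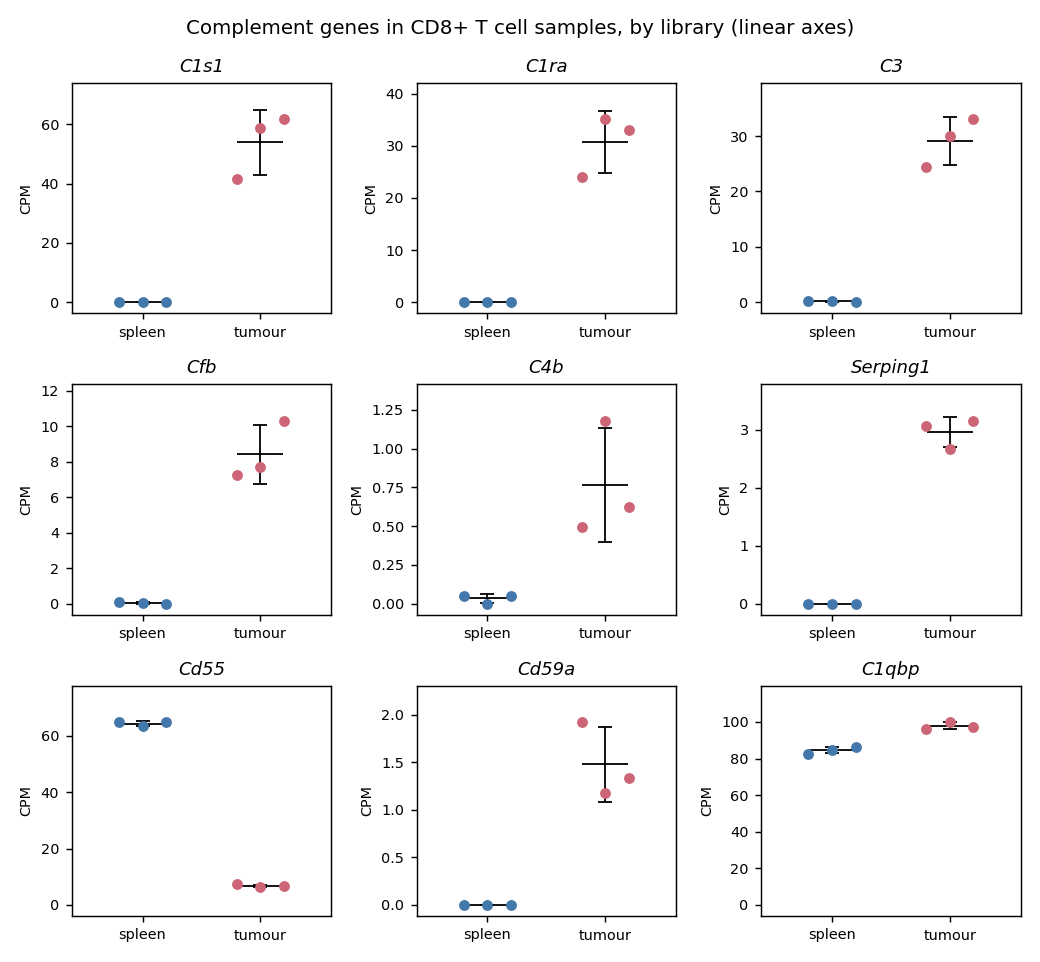
CPM of each gene in the 3 spleen and 3 tumour libraries on linear axes; points are libraries in order of replicate number, and the line and bars are the mean and SD. Cd55 is the only gene of the 9 that is higher in spleen (64.3 against 6.72 CPM), and C1s1, Serping1 and Cd59a are at 0 in every spleen library.

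Levels of different genes were compared per length, as CPM per kilobase of the exons annotated in GENCODE M21. In tumour libraries C1qbp led at 34.6 ± 0.651 CPM per kb, before C1s1 at 17.2 ± 3.48 and C1ra at 10.3 ± 1.99 (SD, n = 3). C3 followed at 5.67 ± 0.838 and Cfb at 2.98 ± 0.586 CPM per kb. Cd55 at 1.38 ± 0.104 and Serping1 at 1.27 ± 0.111 CPM per kb overlapped in range. Cd59a at 0.818 ± 0.217 and C4b at 0.134 ± 0.064 CPM per kb were lowest. All other neighbours in this order had ranges that did not overlap. In spleen, C1qbp at 30.0 ± 0.672 and Cd55 at 13.3 ± 0.177 CPM per kb stood above the other 7 members, which averaged at most 0.0255 CPM per kb. The lengths come from an annotation that may not be the authors' own.

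Within the tumour group, replicate 1 stood apart from the others in several members. It had the lowest summed fibroblast markers (12386 CPM, against 17846 and 15803 in replicates 2 and 3) and the highest summed CD8 identity genes (6061 CPM, against 4512 and 5342). It was also lowest in C1s1, C1ra, C3, Cfb and C4b and highest in Cd55 and Cd59a. The order of the other tumour libraries differed between genes. C1ra and C4b, like the marker sum, were highest in replicate 2, C1s1, C3 and Cfb were highest in replicate 3, and Serping1 was lowest in replicate 2. Per 1000 counts of the collagen gene Col3a1, C1s1 stood at 16.4, 16.9 and 19.0 counts and C1ra at 9.46, 10.1 and 10.2. Per 1000 counts of Cd8a, C1s1 stood at 38.5, 75.6 and 59.6 and C1ra at 22.2, 45.2 and 32.0. The coefficient of variation of C1ra was 4.02% per Col3a1 count, 19.3% in CPM and 34.9% per Cd8a count. For C3 these values were 8.10%, 14.8% and 25.7%. Cd55 was steadier in CPM (7.53%) than per Cd8a count (12.4%) or per Col3a1 count (24.9%). Serping1 too was steadiest in CPM, at 8.72%. Cd59a was steadiest per Cd8a count (16.1%, against 26.6% in CPM and 44.6% per Col3a1 count). With 3 libraries these spreads are a description, and which cells made the transcripts was not tested.

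**Figure D2:**
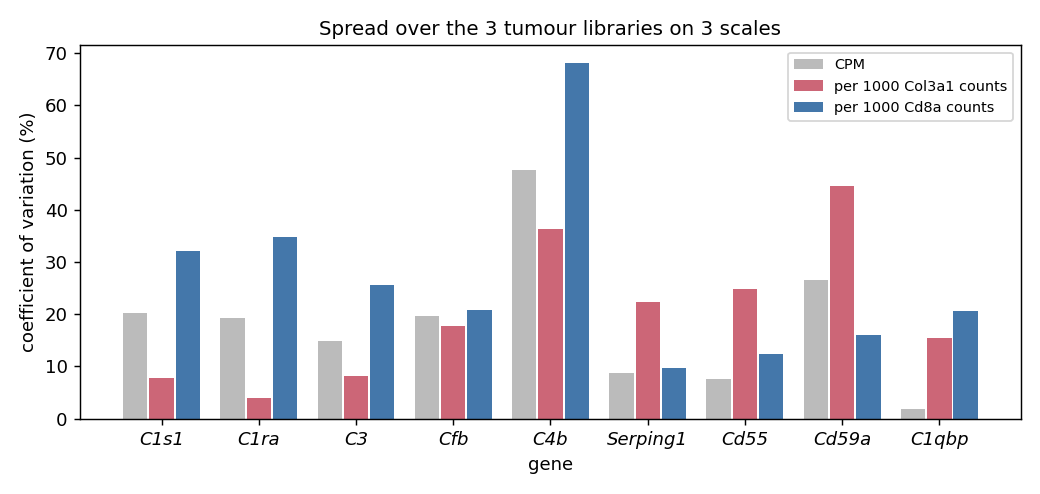
Coefficient of variation (%) over the 3 tumour libraries for each gene, in CPM, per 1000 Col3a1 counts and per 1000 Cd8a counts. C1s1, C1ra and C3 have their lowest bar per Col3a1 count (7.82%, 4.02% and 8.10%), whereas Cd55, C1qbp and Serping1 have it in CPM and Cd59a per Cd8a count. Cfb (17.7%, against 19.6% in CPM) and C4b (36.2%, against 47.7% in CPM, on 46 tumour counts) also have it per Col3a1 count.

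Markers of other cells also differed between these samples, and a list's sum often followed 1 abundant gene. Of 20 macrophage, monocyte and neutrophil markers, 12 were tested, and 8 were higher in tumour and none lower (edgeR, median log2 fold change 2.02). That was 66.7% of those tested. Over all 15042 genes tested, 83.8% passed, 43.6% higher and 40.2% lower. Cd14 averaged 13.3 CPM in tumour and was at 0 in spleen, Lyz2 averaged 6.99 and 1.196 CPM, and Csf1r 3.97 and 2.59 CPM. Adgre1 averaged 0.198 CPM in tumour and Ly6g was at 0 in both groups. The list's sum, 348 to 364 CPM in spleen and 286 to 420 CPM in tumour, was mostly Ly6c2, which T cells also express. Of the endothelial markers 9 were tested, with 8 higher and 1 lower in tumour (median log2 fold change 4.62). These 8 averaged at most 0.556 CPM in spleen and could be tested only because they were high in tumour. The count and the median therefore support nothing. Cdh5 averaged 0.277 CPM in spleen and 11.1 CPM in tumour, and Vwf 0.0327 and 7.13 CPM. Their sum, at 161 to 172 CPM in spleen and 64.4 to 76.4 CPM in tumour, followed Pecam1 alone. Of 7 natural killer markers tested, 6 were higher in tumour and 1 lower (median log2 fold change 3.03). Klre1 averaged 2.86 and 23.4 CPM in spleen and tumour, while Eomes, at 103 and 35.8 CPM, held the sum at 106 to 114 and 96.3 to 113 CPM. In the macrophage and natural killer counts, Cd14, the C1q chains, Mrc1, Klrb1b and Ncr1 (at most 0.0819 CPM in spleen) also entered only through tumour. Those 2 counts and their medians support nothing either. All 5 tested B cell markers were lower in tumour, and their sum, led by Ighm, was 798 to 830 CPM in spleen and 56.7 to 73.5 CPM in tumour. One of the 5, Cd79a, averaged 0.251 CPM in tumour and could be tested only because it was high in spleen. Of 6 dendritic cell markers tested, which include Itgax, 3 were higher and 1 lower (66.7% called). The list's sums were 35.9 to 53.9 CPM in spleen and 56.5 to 82.2 CPM in tumour. The part of these cells in the members' levels was not tested.

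The rest of the pathway was described from 5 lists with 49 genes in all, chosen by textbook membership. In the tumour comparison 18 of them had enough counts to be tested, and 13 had no count in any of the 6 libraries. In edgeR's quasi-likelihood test, with Benjamini-Hochberg adjustment at 0.05 over all genes, 10 rose and 6 fell, together 88.9% of those tested. Over all 15042 genes tested, 83.8% passed, 43.6% higher and 40.2% lower. The median log2 fold change of the 18 was 2.37, and that of all genes 0.03. Of the 10 that rose, 8 averaged under 0.5 CPM in spleen and so could be tested only because they were high in tumour, which is why their count supports nothing. Of the 6 that fell, Susd4 averaged 0.150 CPM in tumour and could be tested only because it was high in spleen. Scaled by CD8 identity genes, 14 of the 18 passed as higher and 4 as lower, and of all calls 82.5% were higher where the first scaling gave 52.0%.

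The initiating genes of the classical and lectin pathways split. Masp1, whose product cleaves complement of the lectin pathway, was at 70.5, 93.9 and 95.1 CPM in tumour replicates. Its 5 spleen counts all lay in spleen replicate 1, and the pooled ratio was 1053 (95% exact interval 451 to 3245). Without that library the fitted log2 fold change of Masp1 went from 9.94 to 13.77, a value against a spleen group at 0 that depends on the fit and is no bound. Masp2, the other MASP protease, was lower in tumour (log2 fold change -1.92 ± 0.18 SE, adjusted p = 6.05e-06 in edgeR). C2, which pairs with C4 and lies directly beside Cfb on chromosome 17, averaged 0.179 ± 0.137 CPM over the spleens and 19.6 ± 3.60 CPM over the tumours (SD, n = 3 each). The 3 chains of C1q, largely macrophage products, reached low levels. C1qa was at 1.16 ± 0.584, C1qb at 0.948 ± 0.468 and C1qc at 1.24 ± 0.264 CPM in tumour libraries (SD, n = 3), with 0, 2 and 3 counts over the spleen group. Per kilobase, C1qa averaged 1.12 CPM in tumour, below C1ra and C1s1. C1rl, a C1r-like gene next to C1ra, had no spleen count and was at least 32.4-fold higher in tumour.

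Past the C3 step little was detected. Of 6 genes for the terminal components, C6, C8a, C8b and C9 had no count in the spleen and tumour libraries and none entered the fit. Hc, the mouse C5 gene, held 1 spleen and 8 tumour counts. Cfp, properdin, which stabilises the alternative pathway enzyme, averaged 4.38 ± 0.173 CPM over the spleens and 4.48 ± 0.806 CPM over the tumours (SD, n = 3 each; edgeR adjusted p = 0.88). Cfd, factor D, which cleaves factor B, had no count in these 6 libraries.

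Among other regulators, Clu, or clusterin, a secreted inhibitor of the terminal complex, went from 1 count over the spleen group to 16.3, 27.5 and 22.2 CPM in tumour replicates. Cd46, a membrane cofactor, fell by 2.38 ± 0.18 on the log2 scale (SE; edgeR adjusted p = 1.18e-06), and Susd4 had a log2 fold change of -3.21 ± 0.40 (edgeR adjusted p = 4.06e-05). Susd4 was at 0.0987, 0.256 and 0.0955 CPM in tumour replicates and entered the fit only through spleen, so its call supports nothing. Cr1l, the mouse membrane regulator Crry, had a log2 fold change of -0.36 ± 0.10 (edgeR adjusted p = 0.00699), which turned to 0.47 when scaled by CD8 identity genes. In the receptor list, C3ar1, the receptor for the C3a fragment, had 3 spleen counts and averaged 1.47 ± 0.521 CPM in tumour (SD, n = 3). Cd93 rose by 3.30 ± 0.25 on the log2 scale and Itgax, an integrin chain of complement receptor 4, by 1.44 ± 0.29 (SE; edgeR adjusted p = 1.35e-06 and 0.00207). Itgb2, the beta chain shared by complement receptors 3 and 4, had a log2 fold change of -0.45 ± 0.09 (edgeR adjusted p = 0.00134), or 0.39 under the CD8 scaling.

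**Figure D3:**
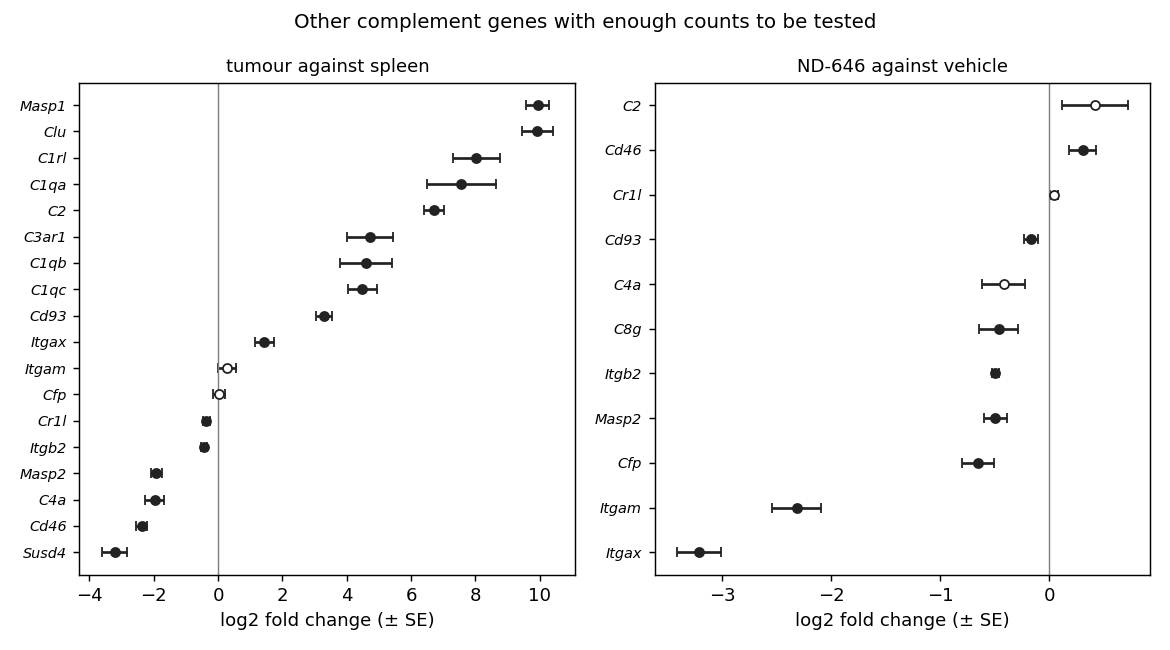
Log2 fold change ± SE of the other complement genes that were tested, in tumour against spleen (18 genes) and in ND-646 against vehicle (11 genes); filled points passed an adjusted p of 0.05 in edgeR. In the tumour panel Masp1 and Clu lie highest and Susd4 lowest (-3.21), and the positions of C1qa and C1rl, which had no spleen count, depend on the fit and are not bounds.

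In the cultures most of the secreted components were at the edge of detection, and the comparison asked what inhibition of acetyl-CoA carboxylase did to them. C1s1 and Serping1 had no count in any of the 8 libraries, where 3 counts correspond to 0.0877 to 0.129 CPM in a library. C4b held 1 count in vehicle and 3 in ND-646 libraries, and was not tested. Cfb, also under the filter, went from 23 counts over the vehicle group to 5 over the ND-646 group. It was at 0.286, 0.175, 0.258 and 0.213 CPM in vehicle replicates and at 0.0636, 0.0585, 0 and 0.0354 CPM in ND-646 replicates, so the groups did not overlap, and the pooled ratio was 5.64 in favour of vehicle (95% exact interval 2.10 to 19.0). The other 5 members were tested. Of these, 4 fell and none rose in edgeR's quasi-likelihood test with adjustment over all 14251 genes, of which 56.3% passed, 29.8% higher and 26.5% lower.

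C3 was at 3.40, 3.11, 2.79 and 2.73 CPM in vehicle replicates 1 to 4 and at 1.27, 2.08, 1.59 and 0.813 CPM in ND-646 replicates 1 to 4. All ND-646 libraries were below all vehicle libraries, and ND-646 replicate 4 was the lowest. The log2 fold change of C3 was -1.05 ± 0.21 (SE; edgeR adjusted p = 0.000395). Per 1000 counts of Cd8a, which was itself less abundant with ND-646, C3 stood at 3.89 to 4.62 with vehicle and 1.73 to 4.40 with the compound, so that on this scale the groups overlapped. C1ra was at 1.35, 0.769, 0.687 and 0.724 CPM in vehicle and at 0.159, 0.117, 0.212 and 0.672 CPM in ND-646 replicates. One library stood apart in each group, vehicle replicate 1 and ND-646 replicate 4, and the lowest vehicle value, 0.687 CPM, lay just above the highest ND-646 value, 0.672 CPM. The log2 fold change of C1ra was -1.64 ± 0.44 (SE; edgeR adjusted p = 0.0052), and -2.44 without ND-646 replicate 4. Per 1000 Cd8a counts it stood at 0.979 to 1.84 with vehicle and 0.248 to 1.43 with the compound, and the groups overlapped through ND-646 replicate 4. Its partner C1s1 had no count in the same libraries.

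Cd55 fell in the cultures as well. It was at 28.2, 26.7, 28.9 and 27.6 CPM in vehicle and at 17.1, 17.6, 15.9 and 14.7 CPM in ND-646 replicates. The log2 fold change was -0.77 ± 0.06 (SE; edgeR adjusted p = 9.24e-09), and between -0.81 and -0.68 in the 14 alternative fits. Cd8a itself averaged 724 CPM in vehicle and 474 in ND-646 samples. Per 1000 Cd8a counts, Cd55 was at 38.3, 33.9, 42.9 and 39.4 in vehicle and at 36.1, 37.2, 33.1 and 31.3 in ND-646 replicates, and on that scale the groups overlapped. The same ratio was 41.5 to 41.7 in spleen and 6.42 to 8.07 in tumour libraries, which belong to the other table.

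C1qbp was at 135, 140, 127 and 133 CPM in vehicle and at 114, 115, 121 and 118 CPM in ND-646 replicates. The drop was small beside those of C3 and Cd55 but larger than the spread between libraries, with a log2 fold change of -0.19 ± 0.04 (SE; edgeR adjusted p = 0.000274). Per 1000 Cd8a counts the order turned, with means of 185 ± 5.56 for vehicle and 247 ± 5.33 for the compound (SD, n = 4 each). Scaled by the whole list of CD8 identity genes it did not turn, with a log2 fold change of -0.11 (edgeR adjusted p = 0.027). Cd59a was at 0.655, 1.19, 0.773 and 0.809 CPM in vehicle and at 1.24, 0.848, 0.846 and 0.672 CPM in ND-646 replicates. These groups overlapped almost fully (log2 fold change 0.06 ± 0.26 SE; edgeR adjusted p = 0.851).

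**Figure D4:**
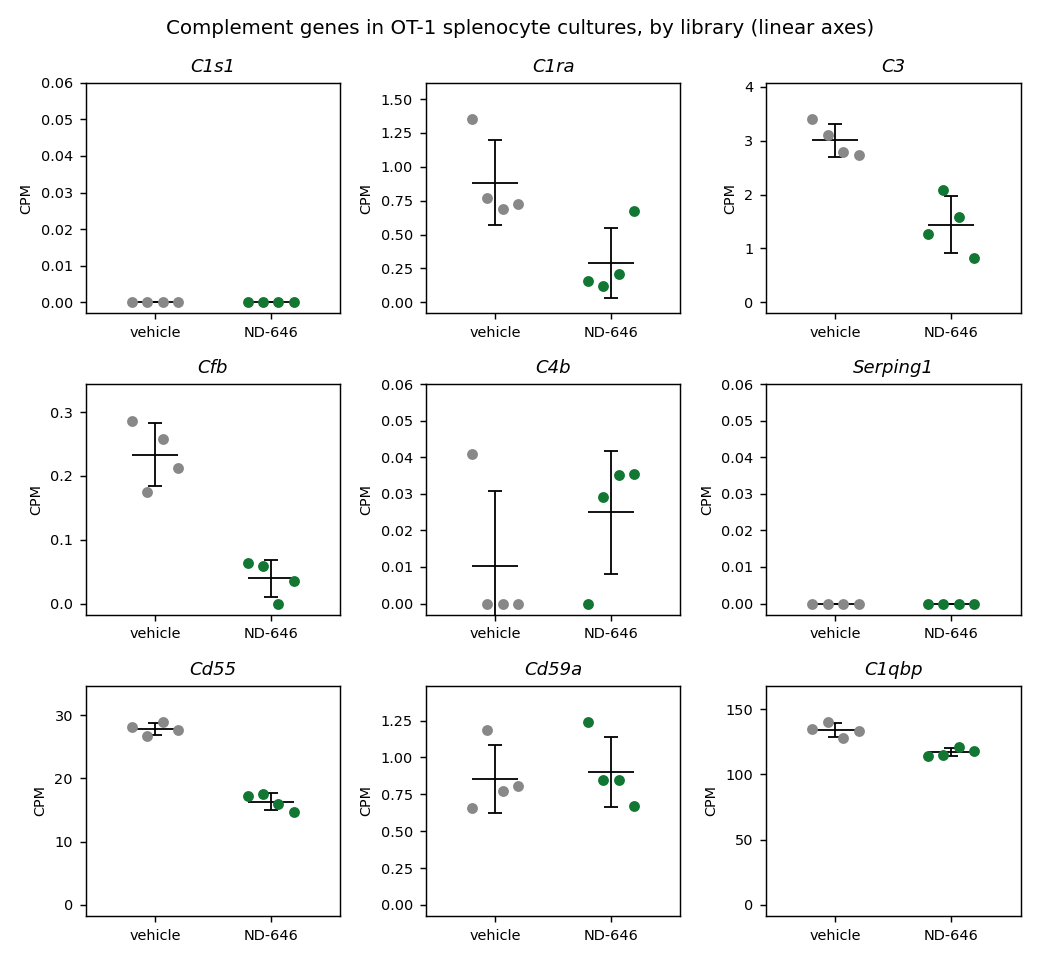
CPM of each gene in the 4 vehicle and 4 ND-646 libraries on linear axes; points are libraries in order of replicate number, and the line and bars are the mean and SD. C3, Cd55, C1qbp, Cfb and, narrowly, C1ra are lower in every ND-646 library than in any vehicle library, and how many of all genes separate so was not counted. Cfb and C4b were not tested, Cd59a and C4b overlap, and C1s1 and Serping1 are at 0 throughout.

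Of the other 49 complement genes, 11 were tested in the cultures, with 1 higher, 7 lower and 3 that did not pass (72.7% called). Of all 14251 genes tested there, 56.3% passed, 29.8% higher and 26.5% lower, and a list of 11 is short. The median log2 fold change of the 11 was -0.46, and that of all genes 0.01. Of the 11, Itgax and Itgam, chains of complement receptors, had the lowest fold changes. Itgax went from 5.29 ± 1.21 to 0.564 ± 0.0932 CPM and Itgam from 2.27 ± 0.449 to 0.448 ± 0.065 CPM (SD, n = 4 each), with edgeR adjusted p = 2.69e-10 and 7.35e-08. Their common partner Itgb2, which T cells express, fell by 0.49 ± 0.03 on the log2 scale (SE; edgeR adjusted p = 1.10e-09). C5ar1, a receptor for the C5a fragment, had too few counts to be tested, with 27 over the vehicle group and 1 over the ND-646 group (pooled ratio 33.1 in favour of vehicle, 95% exact interval 5.45 to 1355). Its groups did not overlap. Masp2 fell by 0.50 ± 0.10 and Cfp by 0.65 ± 0.15 (edgeR adjusted p = 0.000567 and 0.00106). C8g (adjusted p = 0.0352) and Cd93 (adjusted p = 0.0368), both lower, and Cd46 (adjusted p = 0.0421), higher, passed narrowly in edgeR. Their calls were lost in 8, 5 and 9 of 14 alternative fits. For C8g these included leaving out vehicle replicates 2, 3 or 4 or ND-646 replicates 1, 2 or 4. For Cd93 they included leaving out vehicle replicates 1, 2 or 3 or ND-646 replicate 1, and for Cd46 any of replicates 1, 2 or 3 of either group. The lost calls had adjusted p = 0.0506 to 0.13, 0.0516 to 0.334 and 0.0504 to 0.165 respectively. The number of called genes was 5 without vehicle replicate 2 or without ND-646 replicate 1, against 8 with all libraries.

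Several marker lists of other cells also differed in the cultures. The summed macrophage, monocyte and neutrophil markers came to 90.8 to 113 CPM with vehicle and 34.04 to 42.2 CPM with ND-646. This list counts Itgam and the C1q chains, and each chain held at most 2 counts in a group. Of its 20 genes 7 were tested, 5 lower and 1 higher (85.7% called). Over all 14251 genes tested, 56.3% passed, 29.8% higher and 26.5% lower. The 8 natural killer markers summed to 49.4 to 53.3 and 16.5 to 18.2 CPM, and 5 of the 6 tested were lower. Fibroblast markers summed to 18.0 to 19.97 CPM with vehicle and 18.7 to 20.01 CPM with ND-646. Of these markers 5 were tested, with 2 lower and 1 higher. Within the level sum, Col6a2 went from 4.87 to 6.67 CPM and Pdgfrb from 3.30 to 2.06 CPM. In the cultures Adgre1 averaged 0.0689 CPM with vehicle and 0.0418 CPM with the compound, and S100a8 and S100a9 were at 0. The most abundant gene of the macrophage list with vehicle was Ccr2, which activated T cells also express. Ccr2 averaged 66.4 CPM with vehicle and 12.3 CPM with ND-646, so the fall of the list's sum was mostly that of this gene. Ly6c2 went the other way, from 7.75 to 13.3 CPM. Of 6 B cell markers tested, 5 were lower with ND-646 and 1 higher (edgeR; median log2 fold change -2.44), and Cd79b averaged 3.28 CPM with vehicle and 1.12 CPM with the compound. Their sum went the other way, from 114 to 130 CPM to 148 to 173 CPM, because Ighm makes up most of it, at means of 115 and 162 CPM. All 3 tested endothelial markers were lower, with sums of 42.3 to 48.0 and 28.9 to 32.5 CPM. Of 4 dendritic cell markers tested, 2 were lower and 1 higher, with sums of 41.8 to 46.2 and 35.4 to 58.9 CPM. The part of these cells in the lower values of C3, C1ra and Cfb was not tested.

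Across all 4 groups the members thus held different orders of level, with the tables scaled separately. C3 averaged 0.131 CPM in spleen, 1.44 in ND-646, 3.01 in vehicle and 29.1 in tumour libraries. Cd55 ran from 6.72 CPM in tumour through 16.3 in ND-646 and 27.8 in vehicle to 64.3 in spleen libraries. C1qbp ran from 84.6 CPM in spleen through 97.9 in tumour and 117 in ND-646 to 134 in vehicle libraries. No neighbouring groups in these 3 orders overlapped in CPM, but how many of all genes separate in this way was not counted. Per 1000 Cd8a counts, C3 and Cd55 overlapped between vehicle and ND-646. On that scale C1qbp was higher with ND-646, at a mean of 247 against 185 with vehicle.

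The genes whose pattern was most like that of a member were named by Pearson correlation of log2(CPM + 0.5) over all 14 libraries, scaled together, among 10290 genes averaging at least 5 CPM. For C1s1 they were Flrt2, Lox and Wnt5a (r of 1.000 to 3 decimals for each), as these genes were also high in tumour libraries and near 0 elsewhere. For C3 they were Epha2, Calm2 and Nt5dc2 (r = 0.996, 0.995 and 0.993). For Cd55 they were Grk2, Galnt12 and Exosc10 (r = 0.993, 0.990 and 0.990), and for C1qbp Osgin2, Pmpca and Usp39 (r = 0.993, 0.989 and 0.989). The 14 points fall into 4 groups from 2 experiments, so these values describe the group pattern and carry no test.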

How the data were processed

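RNA sequencing measured polyadenylated RNA in 14 libraries. Estimated counts are what the authors deposited, as 2 gene tables (1 per experiment) of 55291 symbols. Per the submitters' processing notes the tools included Salmon, STAR and DESeq2; their versions, the genome build, the annotation and the strand setting are not given in the sources used. Of the values, 9.16% and 9.15% were not whole (tolerance 1e-06), and counts were rounded before testing. Estimated counts divide reads among near-identical genes by a model, so C4b and C4a, Cd59a and Cd59b, C1ra and C1rb, C1s1 and C1s2, and Cd55 and Cd55b are less certain than single-copy genes, as are overlapping and antisense genes.

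ND-646 was compared with vehicle, and tumour with spleen, each on the libraries of 1 table. Genes were filtered with filterByExpr and scaled by TMM, and edgeR 4.0.16 under R 4.3.3 gave robust quasi-likelihood p-values, called at a Benjamini-Hochberg value of 0.05. The standard error was derived from the F statistic. CPM are counts per 1e+06 of the TMM-scaled library. A count of 0 was bounded with 3 counts over the group (95% exact conditional intervals for ratios of pooled counts). Members and gene lists were chosen with earlier results of these data known. Named were all 9 members, other complement genes called at a mean of at least 1 CPM, summed marker lists and the 3 genes most like C1s1, C3, Cd55 and C1qbp. Genes outside this rule (C1qa to C1qc chains as a group, terminal components, Hc, Cfd, C5ar1, Cfp in tumour, single markers) were named after their values were seen. Alternatives were DESeq2 1.42.0, RLE size factors, scaling by CD8 identity genes, other filters, the replicate block and leaving out each library. The pipeline was tested on simulated counts. Replicate pairs of a group differed by more than sampling noise (chi-square per degree of freedom 2.33 to 18.3), and none was counted as a duplicate. Promoter windows are RefSeq's (GRCm38.p6). Of the symbols, 53292 were in GENCODE M21.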

Additional observations from a re-analysis of the deposited data

Results flagged for a closer look

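Values that stood far from the other libraries of their group of 4 were found by the gap to the nearest library as a share of the group's range, against Dixon's 95% limit. Among 18 groups looked at, those of C1s1 and Serping1 were at 0 in every library and could not be flagged. For the rest the limit is meant to flag about 1 in 20 by chance, a rate that need not hold at low counts. C1ra was at 1.35 CPM in vehicle replicate 1, above the other vehicle libraries, and at 0.672 CPM in ND-646 replicate 4, above the other ND-646 libraries. C4b was at 0.0409 CPM in vehicle replicate 1. This is a single count beside 0 in the other vehicle libraries, which the rule flags at any value.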

How the results depend on the processing

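In the cultures every tested member kept its direction under all alternatives except Cd59a, whose log2 fold change of 0.06 turned to -0.05 without vehicle replicate 1 and to -0.14 without ND-646 replicate 1; over all left-out libraries it ran from -0.14 to 0.28, never passing the test. The other 4 tested members of that comparison stayed past the threshold wherever they were tested. Scaling by CD8 identity genes turned Cr1l to 0.47 and Itgb2 to 0.39 in the tumour comparison, where the calls became 9942 higher and 2102 lower (6551 and 6051 before). In the cultures that scaling gave 5723 higher and 2734 lower, 67.7% higher against 52.9%. Other complement genes called in the cultures numbered 5 to 8 when a library was left out. Same-numbered samples did not deviate together (correlation across genes -0.12 to 0.07 in the cultures, -0.05 to -0.02 in spleen and tumour). With so few libraries per group this cannot show whether they came from the same animals, which the labels do not state. With the replicate block, 7864 and 12492 genes were called, 8 and 16 of them other complement genes, against 8028, 12602, 8 and 16 without it, and no member's call in the cultures changed. Depth limits C1s1 and Serping1 in spleen and cultures and C4b throughout: a count of 0 allows up to 3 counts, or 0.0877 to 0.154 CPM in a library.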
